A study of Mus musculus with 2 samples.

Results

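Amino acid and peptide transporters were described in 4T1 cells, which derive from a mouse mammary carcinoma, cultured on their own or opposite M2 macrophages. The set holds 33 genes of the solute carrier (Slc) families that move amino acids, small peptides or related osmolytes across membranes. Members were taken by gene symbol from the deposited expression table, and all 33 had a row among its 51912 Ensembl genes. The control library came from 4T1 cells labelled as control, and the other library from 4T1 cells kept for 3 days in the lower chamber of a transwell with M2 macrophages, phagocytes in the alternatively activated state, in the upper chamber. RNA was taken from the 4T1 cells alone. There was 1 library per group, so every value below is a single measurement, no test between groups was possible, and each difference compares these libraries only. Whether the control cells had an empty upper chamber, how long they were cultured and where the macrophages came from are not given in these sources. The title of the co-culture library reads 4T2 where its treatment label and table column read 4T1, and the treatment label was followed.

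Amino acid carriers work as exchangers, as sodium- or proton-driven pumps, or as facilitators, and most accept several substrates. Some are heteromers, in which a glycoprotein heavy chain brings a light chain of the Slc7 family to the cell surface and the light chain does the transport. Others sit in the lysosome and return amino acids from degraded protein to the cytosol. When amino acids run short or the endoplasmic reticulum is stressed, phosphorylation of eIF2alpha raises translation of the transcription factor ATF4. ATF4 binds composite C/EBP-ATF response elements and raises transcription of biosynthetic enzymes and of several amino acid carriers. Tumour cells commonly rely on glutamine, leucine and cystine uptake through a few of these carriers.

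Levels are in TPM, a transcript abundance that is corrected for transcript length and scaled to the same total in each library, so levels of different genes can be compared within a library. Sequencing depth cannot be read from TPM and is unknown here, so the precision of low values is unknown too. Genes whose TPM averaged at least 1 across the libraries are called detected, and there were 11258 of them. Differences are given as log2((co-culture TPM + 1)/(control TPM + 1)), a scale that understates the difference of low genes. Over all detected genes the median log2 ratio was 0.17. Of 15 mammary epithelial markers 8 were detected, with the keratin gene Krt8 the highest (548 and 630 TPM), and 7 were not. Among those 7, Epcam was listed at 0 in both libraries and Cdh1 had 0.04 and 0.01 TPM, so these defining epithelial markers were absent or nearly so under a label of mammary carcinoma cells, and what this says of the cells was not tested. Of 24 macrophage and myeloid markers 3 were detected (Cd68, Cd74 and Cd14), and 12 were listed at 0 in both libraries, among them Adgre1, Ptprc and Tyrobp. The summed TPM of this marker list was 76.6 in the control and 47.6 in co-culture, nearly all of it from the 3 detected genes, of which Cd68 was the highest (57.7 and 27.8 TPM). Of 10 fibroblast markers 2 were detected, with Pdgfra the higher (5.60 and 10.2 TPM).

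The 250 bases before and 50 bases after each annotated start site were searched for the core of the C/EBP-ATF response element, TGATGNAA on either strand. RefSeq windows on GRCm38.p6 were matched by symbol to 24 members. The detected members Slc7a5, Slc1a5, Slc38a1, Slc6a6 and Slc6a8 had no window and were not searched. Of the 24 members with a window, 15 were detected. The element was found in 3 of those 15 genes (20%), against 2.39% of the 8443 detected genes with a window and 4.51% of all 27025 genes. A gene can have several windows, and the detected members had more per gene. By window the shares were 16.7% of 24 for the detected members and 1.96% of 10822 for all detected genes. The set holds 9 genes described in the literature as ATF4 or amino acid response targets. A higher share is thus partly built into the choice of members and is not independent evidence. The 3 genes with a match are the cystine carrier Slc7a11, the neutral amino acid exchanger Slc1a4 and the cationic amino acid light chain Slc7a7. Their upstream stretches are shown because they hold every match found in the set, with capitals marking the matches, and positions count from 1 at the RefSeq start site and backwards from -1. The Slc7a11 stretch (chr3:50443614-50443709, minus strand) ends at -1 and holds a forward match from -66 to -59 and a reverse match from -47 to -40. The Slc1a4 stretch (chr11:20332710-20332747, minus strand) holds 1 reverse match across the start site, from -4 to 4. The Slc7a7 stretch (chr14:54417938-54418115, minus strand) belongs to the most upstream of its matching windows and holds forward matches from -141 to -134 and from -1 to 7. Slc7a7 has 5 windows, and the second of its sites also falls in another of them.
Slc7a11: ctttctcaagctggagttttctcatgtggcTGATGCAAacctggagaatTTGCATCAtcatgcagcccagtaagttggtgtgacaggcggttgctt
Slc1a4: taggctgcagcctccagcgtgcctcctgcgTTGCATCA
Slc7a7: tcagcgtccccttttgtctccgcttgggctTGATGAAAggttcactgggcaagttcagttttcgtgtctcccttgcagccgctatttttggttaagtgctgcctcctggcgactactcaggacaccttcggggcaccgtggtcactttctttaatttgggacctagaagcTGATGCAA
The genes with a match did not all differ between the libraries. Slc7a11 and Slc1a4 were lower in co-culture, at log2 ratios of -1.25 and -1.10, and Slc7a7 had a ratio of 0.11. Of the 5 members with a window that were at least 2-fold lower, 2 held a match, and of the 10 detected members with a window that were not, 1 did. Slc7a11, 1 of those 2, had 0.77 TPM in co-culture and counted as detected only through its control level. A match is a string of letters in this window and does not show binding. A missing match does not show that a gene lacks the element, since bases outside the window were not searched.

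Of the 33 transporters, 20 were detected, and the other 13 stayed under a mean of 1 TPM. On the log2 scale 6 of the 20 were at least 2-fold lower in co-culture and 1 was at least 2-fold higher. Among all detected genes 2.14% were at least 2-fold lower and 4.95% at least 2-fold higher, and among protein-coding genes alone these shares were 1.5% and 4.28%. The members' share at least 2-fold lower (30%) was above that background, and their share higher (5%) was close to it. The members were chosen with earlier results of these data known, so these shares are a description and not independent evidence. In bulk RNA, fewer cells that express a gene and less RNA per cell cannot be told apart. The 6 lower genes were Slc6a9, Slc7a5, Slc3a2, Slc38a7, Slc7a11 and Slc1a4, and the higher gene was Slc15a4. Slc7a11 was under 1 TPM in co-culture (0.77 TPM) and counted as detected only through its control level (3.22 TPM), where it is high. The remaining 13 were within 2-fold, and as many detected members had a lower value (10) as a higher one (10), which became 11 and 9 with the median ratio scaling and 12 and 8 with the TMM factor. Among all detected genes 64.5% had a higher and 35.4% a lower value. The members' median was 0.01, and centring the libraries by the median ratio over abundant genes (0.12 on the log2 scale) or by a TMM factor, a trimmed mean of ratios (0.22), made it -0.10 or -0.20. Under those scalings the count of 6 lower members and 1 higher member stood. The background did not: 69.8% of all genes past 2-fold were higher with TPM as deposited, 57.7% with the median ratio and 45.2% with the TMM factor.

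**Figure D1:**
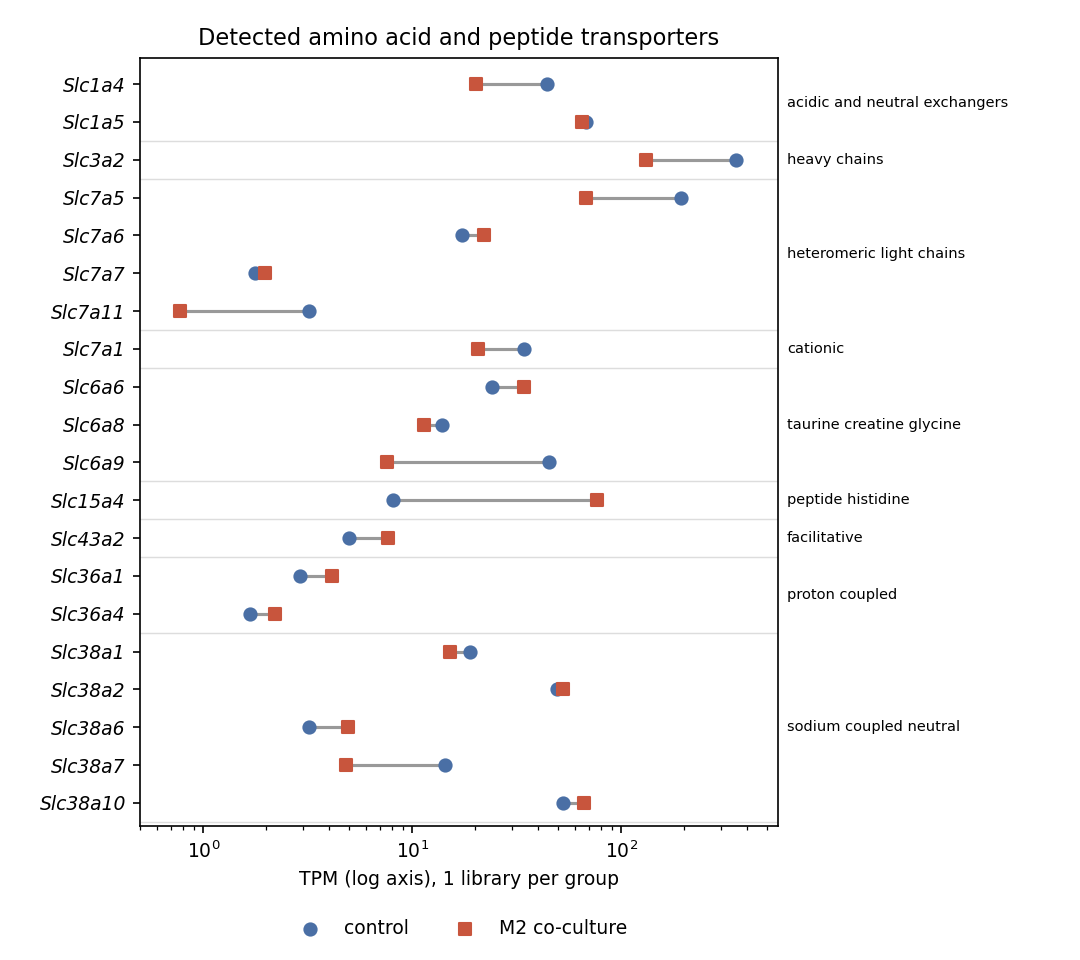
TPM on a log axis for the 20 detected transporters, grouped by role, with a circle for the control library, a square for the co-culture library and a line joining them. Slc3a2, Slc7a5 and Slc6a9 have their squares well to the left of their circles, Slc15a4 has its square far to the right, and Slc1a5 and Slc38a2 nearly coincide.

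Taken as a sum, the transcripts of the 33 transporters came to 956 TPM in control cells and 618 TPM in co-cultured cells, 35.4% less. In the control most of that sum came from a pair of genes. Slc3a2 and Slc7a5, whose proteins form 1 heteromer, made up 57.3% of it in the control and 32.2% in co-culture. Among detected genes Slc3a2 ranked 352 by level in the control and 897 in co-culture.

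Slc3a2 encodes the heavy chain CD98 (4F2hc), the partner of several Slc7 light chains. It (ENSMUSG00000010095) is on chromosome 19 (GRCm38, 8706882 to 8723369) and had 354 TPM in control cells and 131 TPM in co-cultured cells. The control level was 2.70 times that of co-culture, and the log2 ratio was -1.42. The other heavy chain, Slc3a1 (rBAT), which serves the cystine carrier of kidney and gut, was near 0 in both libraries, at 0.05 and 0.07 TPM. Slc3a2 was thus the heavy chain gene detected in these libraries, at a lower level in co-culture.

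The light chains did not move together. Slc7a5 (LAT1; ENSMUSG00000040010, chromosome 8 from 121881150 to 121907694) exchanges glutamine for leucine and other large neutral amino acids. Its level was 193 TPM in control cells and 67.5 TPM in co-cultured cells, which is -1.50 on the log2 scale. The gene overlaps the annotated gene Gm20388 on the opposite strand, which had 3448 TPM in control cells and 4631 TPM in co-cultured cells. Whether the counting used strand is not given in the sources, so reads from the shared part may be assigned to either gene. Slc7a11 (xCT), which takes up cystine in exchange for glutamate and so feeds glutathione synthesis, was low in both libraries. It had 3.22 TPM in control cells and 0.77 TPM in co-cultured cells, and its log2 ratio of -1.25 became -0.51 with a pseudocount of 5. Slc7a6 (y+LAT2), which exchanges cationic for neutral amino acids, had 17.2 TPM in control cells and 21.9 TPM in co-cultured cells, a ratio of 0.33. Its relative Slc7a7 (y+LAT1) had 1.77 and 1.98 TPM, a difference that turned negative with the TMM factor. The span of Slc7a7 overlaps that of Oxa1l on the other strand, a more abundant gene with 60.6 and 47.0 TPM. Slc7a8 (LAT2), the other light chain for large neutral amino acids, was listed at 0 in both libraries.

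Summed light chain transcripts were lower along with the heavy chain. The 5 light chains summed to 216 TPM in control cells and 92.1 TPM in co-cultured cells, which was 0.61 and 0.70 of the Slc3a2 level. Slc7a5 alone stood at 0.55 of Slc3a2 in the control and 0.51 in co-culture. The makeup of the light chain pool differed more. Slc7a5 gave 89.7% of it in the control and 73.2% in co-culture, while Slc7a6 gave 8% and 23.8%. The level of Slc7a5 was 11.2 times that of Slc7a6 in the control and 3.08 times in co-culture. These are proportions of transcripts and not of assembled proteins.

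**Figure D2:**
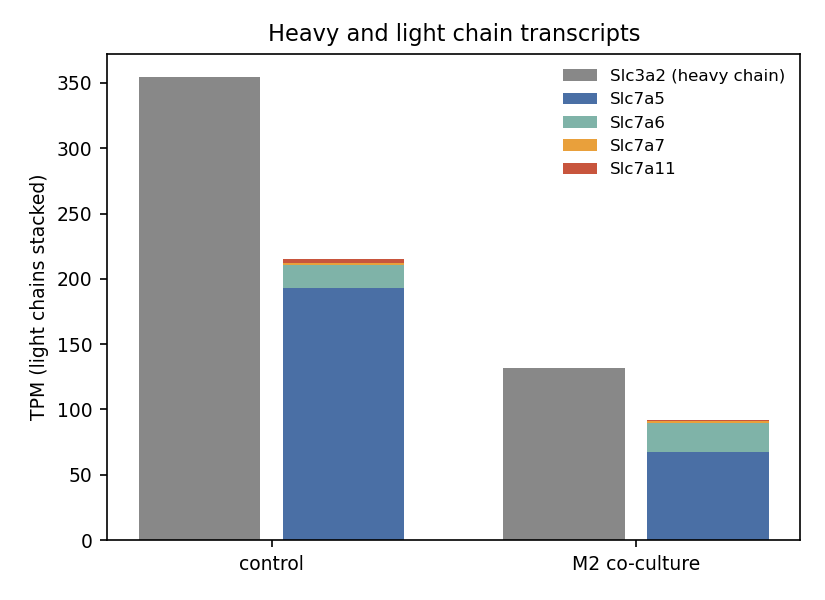
TPM of the heavy chain gene Slc3a2 (grey) beside the stacked TPM of the detected light chain genes, in the control and co-culture libraries. Both bars are lower in co-culture, and the Slc7a6 segment takes 23.8% of the light chain stack there against 8% in the control.

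Of the neutral amino acid exchangers of the Slc1 family, 1 was lower and the other nearly equal. Slc1a4 (ASCT1), which exchanges alanine, serine and cysteine, had 44.3 TPM in control cells and 20.2 TPM in co-cultured cells. It (ENSMUSG00000020142) lies on chromosome 11 from 20302180 to 20332713, and its log2 ratio of -1.10 was close to the 2-fold limit and became -0.97 with a pseudocount of 5. Slc1a5 (ASCT2), the main glutamine exchanger of many tumour lines, had 67.8 TPM in control cells and 64.9 TPM in co-cultured cells, a log2 ratio of -0.06. The ratio of Slc1a5 to Slc1a4 was 1.53 in the control and 3.22 in co-culture. In the control Slc1a5 stood at 0.35 of the Slc7a5 level, and in co-culture the levels were nearly equal, at 0.96. The glutamate transporters of the family, Slc1a1, Slc1a2 and Slc1a3, reached at most 0.24 TPM in either library.

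Of the cationic amino acid carriers Slc7a1, Slc7a2 and Slc7a3, 1 was detected. Slc7a1 (CAT1), a facilitative carrier of arginine and lysine, had 34.3 TPM in control cells and 20.6 TPM in co-cultured cells. Its log2 ratio of -0.71 was within 2-fold and past 1.5-fold. Slc7a2 (CAT2), which macrophages use for arginine uptake, was listed at 0 in both libraries, and Slc7a3 had at most 0.02 TPM.

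The 3 Slc6 members, which are driven by sodium and chloride, differed from each other. Slc6a9 (GlyT1), a glycine transporter, was the transporter with the lowest ratio. It (ENSMUSG00000028542, chromosome 4 from 117834506 to 117875198) had 45.2 TPM in control cells and 7.60 TPM in co-cultured cells, so the control level was 5.94 times that of co-culture. Its log2 ratio of -2.42 was the 43rd lowest of all 11258 detected genes. The span overlaps B4galt2 on the opposite strand, which had 30.3 and 29.8 TPM, and the nearby genes Atp6v0b and Dph2 had ratios of -0.39 and -0.47. None of the 3 RefSeq windows of Slc6a9 held the response element core, and bases outside those windows were not searched. The taurine transporter gene Slc6a6 had 24.0 TPM in control cells and 34.4 TPM in co-cultured cells (log2 ratio 0.50). The creatine transporter gene Slc6a8 had 13.8 and 11.4 TPM (-0.26). Of these 3 genes the glycine carrier was the one past 2-fold.

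Of the 5 detected sodium-coupled neutral amino acid transporters of the Slc38 family, 4 were within 2-fold, and among these Slc38a2 was closest to equal. Slc38a2 (SNAT2), a glutamine and alanine carrier that is a classic target of the amino acid response, had 49.4 TPM in control cells and 52.7 TPM in co-cultured cells. Its ratio of 0.09 turned negative with the median ratio scaling and the TMM factor. Slc38a1 (SNAT1), its neighbour on chromosome 15 at a distance of 44479 bases, had 18.9 and 15.1 TPM, and the third gene of that cluster, Slc38a4, had 0.05 and 0.03 TPM. Slc38a10, a family member whose substrates are less well defined, was the most abundant of the family in both libraries, with 52.4 TPM in control cells and 66.0 TPM in co-cultured cells. Slc38a6 had 3.21 and 4.94 TPM.

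Slc38a7 (SNAT7), which exports glutamine from lysosomes, was the detected gene of that family past 2-fold. It (ENSMUSG00000036534, chromosome 8 from 95835920 to 95853539) had 14.3 TPM in control cells and 4.84 TPM in co-cultured cells, a control level 2.96 times that of co-culture. The log2 ratio was -1.39, and -0.97 with a pseudocount of 5. Its nearest protein-coding neighbours on either side, Sap18b and the aspartate aminotransferase gene Got2, had ratios of 0.01 and -0.11. Slc38a9, the lysosomal arginine sensor that acts on mTORC1, was under the detection limit at 0.57 and 0.73 TPM. The summed level of the 8 Slc38 genes was 139 TPM in control cells and 144 TPM in co-cultured cells, of which Slc38a7 is a small part.

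Slc15a4 (PHT1) moves histidine and small peptides out of endosomes and lysosomes and is needed for signalling by endosomal Toll-like receptors in immune cells. It was the transporter with the highest ratio. The gene (ENSMUSG00000029416, chromosome 5 from 127595664 to 127632897) had 8.10 TPM in control cells and 76.5 TPM in co-cultured cells, 9.44 times as much. The log2 ratio of 3.09 was the 31st highest of all detected genes and ranged from 2.64 to 3.22 over the pseudocounts and scalings tried. A pair of annotated genes overlap its span on the opposite strand: Glt1d1 was listed at 0 in both libraries and Gm43474 had 0.22 TPM and 0. The nearest protein-coding genes that do not overlap, Tmem132c and Tmem132d, had 0 TPM in both and 4.22 and 5.04 TPM. Slc15a3 (PHT2), the related lysosomal carrier, had 0.10 TPM in control cells and 0.11 TPM in co-cultured cells. Of the 24 macrophage and myeloid markers the 3 detected were Cd14, with 8.87 and 12.4 TPM, Cd68, with 57.7 and 27.8 TPM, and Cd74, with 9.93 and 6.87 TPM. The other 21 reached at most 0.27 TPM in either library: Lyz2 had 0 and 0.04 TPM, Csf1r 0.03 and 0.01 TPM, and Adgre1, Tyrobp and Fcer1g were listed at 0. Of the undetected markers, Aif1 (0 and 0.27 TPM), Ctss (0 and 0.08 TPM), C1qb, Mpeg1, Mrc1 and Lyz2 had higher values in co-culture. Laptm5 and Csf1r had lower values there. The list's summed TPM was lower in co-culture, and nearly all of it came from Cd68, Cd74 and Cd14. Which cells the Slc15a4 transcripts came from was not tested.

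The detected facilitative and proton-coupled carriers were low and slightly higher in co-culture, the direction of 64.5% of all detected genes. Slc43a2 (LAT4), a facilitator for branched-chain amino acids, phenylalanine and methionine, had 4.97 and 7.66 TPM (log2 ratio 0.54). Slc36a1 (PAT1), a proton-coupled carrier of glycine, alanine and proline found on lysosomes, had 2.91 and 4.12 TPM, and Slc36a4 (PAT4) had 1.67 and 2.21 TPM. The ratios of Slc36a1 (0.39) and Slc36a4 (0.27) lay between the 25th and 75th percentiles of all detected genes (-0.14 and 0.48). That of Slc43a2 lay just above. All 3 genes stayed above 0 with each pseudocount and scaling. The aromatic amino acid facilitator Slc16a10 and Slc43a1 (LAT3) were listed at 0 in both libraries.

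The 13 undetected members reached at most 0.73 TPM in either library, the value of Slc38a9 in co-culture. Of these, 5 were listed at 0 in both libraries, namely Slc1a2, Slc7a2, Slc7a8, Slc16a10 and Slc43a1. A further list of 29 plasma membrane amino acid and peptide carriers outside the set had no detected gene. In that list 21 of the 29 were at 0 in both libraries.

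Of the 7 transporters past 2-fold, 5 are described in the literature as ATF4 or amino acid response targets. That list of 9 members was chosen from general knowledge, with earlier results of these data known, and is not independent evidence of a direction. Among 8 detected genes, 7 were lower in co-culture and 5 of those by at least 2-fold (Slc6a9, Slc7a5, Slc3a2, Slc7a11 and Slc1a4), and the median log2 ratio was -1.18. Of the other 12 detected transporters 3 had lower and 9 higher values, with 1 past 2-fold in each direction and a median of 0.33. For comparison, 35.4% of all detected genes had a lower and 64.5% a higher value, with a median of 0.17. The all-gene shares at least 2-fold lower and higher were 2.14% and 4.95%. Slc7a11 counted as detected only through its control level. The list was not uniform, since Slc1a5 and Slc38a2 had ratios of -0.06 and 0.09. Summed over its 9 genes the list had 792 TPM in control cells and 366 TPM in co-cultured cells, while the other 24 members had 164 and 252 TPM. Slc15a4 alone gave 8.10 and 76.5 TPM of that second pair.

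Other genes of amino acid handling were set beside these values, in lists also chosen with earlier results of these data known. Those lists are not independent evidence of a direction either. Among all detected genes 2.14% were at least 2-fold lower in co-culture and 4.95% at least 2-fold higher. Of 16 detected amino acid response genes that are not transporters, 12 were at least 2-fold lower and none higher, with a median of -1.43. The lowest were Ddit3, Trib3, Chac1 and Atf3, at -4.90, -3.62, -2.97 and -2.31. Slc6a9, the lowest transporter, lay just below Atf3 in ratio. None of 8 detected mitochondrial amino acid carriers was 2-fold different, and their median was 0.11. The lowest of them were the basic amino acid carrier gene Slc25a29 (-0.86) and the glycine carrier gene Slc25a38 (-0.64), with the glutathione carrier gene Slc25a39 at -0.35, and the aspartate-glutamate carrier gene Slc25a13 was the highest (0.74). Of 7 detected lysosomal and vesicular carriers none was 2-fold different (median 0.28). Pqlc2, the lysosomal exporter of cationic amino acids, had a ratio of -0.65, the cystine exporter gene Ctns -0.51, Slc46a3 0.53 and the sialic acid exporter gene Slc17a5 0.52. In the list of amino acid sensing genes 2 of 23 detected were at least 2-fold lower, Atf4 (-1.83) and Sesn2 (-1.38), which also belong to the response list. Castor2, a paralog of the arginine sensor gene Castor1 of the mTORC1 pathway, was past 2-fold in the other direction (1.15 TPM in control cells and 5.18 TPM in co-cultured cells), and Depdc5 had a ratio of 0.82. The remaining 20 were within 2-fold, and the median was 0.10.

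**Figure D3:**
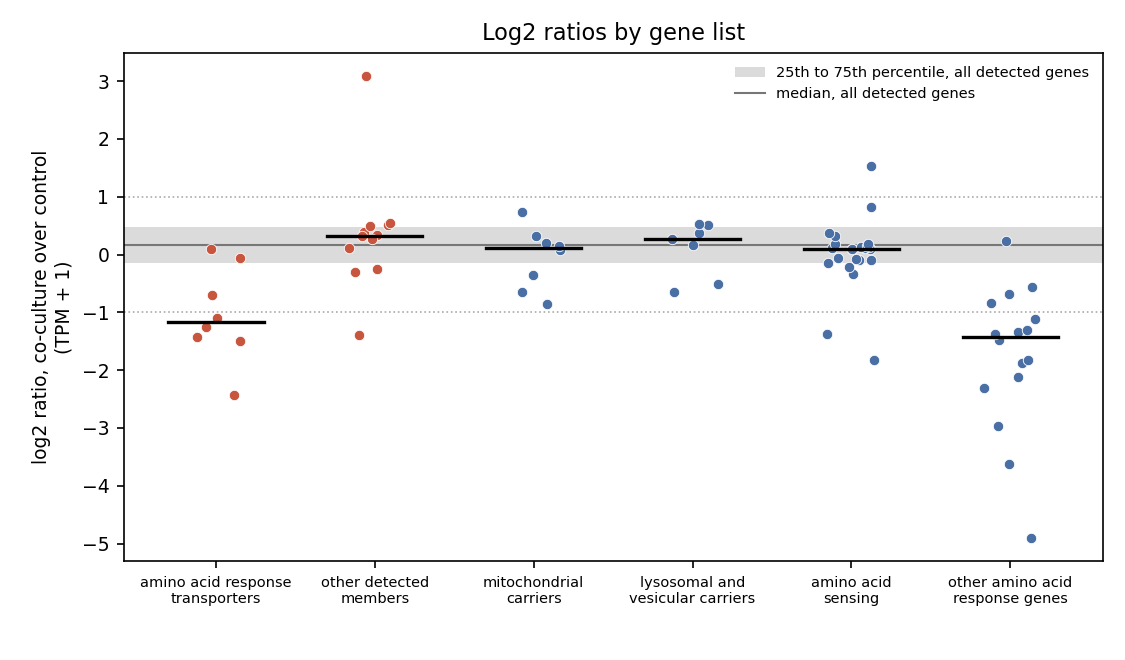
Log2 ratio of co-culture over control (TPM + 1) for each detected gene of 6 lists, with a black bar at each list median, a grey band from the 25th to the 75th percentile of all detected genes, a grey line at their median and dotted lines at 2-fold. The amino acid response transporters (median -1.18) and the other amino acid response genes (median -1.43) lie mostly below the band, and the medians of the other 4 lists lie within it.

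Ratios of single transporters kept their side of the 2-fold limit under most settings. With a pseudocount of 0.1 and with each of 3 other scalings all 20 did so. With a pseudocount of 5, Slc1a4, Slc38a7 and Slc7a11 came within 2-fold, which left Slc6a9, Slc7a5 and Slc3a2 as the 3 lower members. At a 4-fold limit 1 gene was lower (Slc6a9) and 1 higher (Slc15a4).

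**Figure D4:**
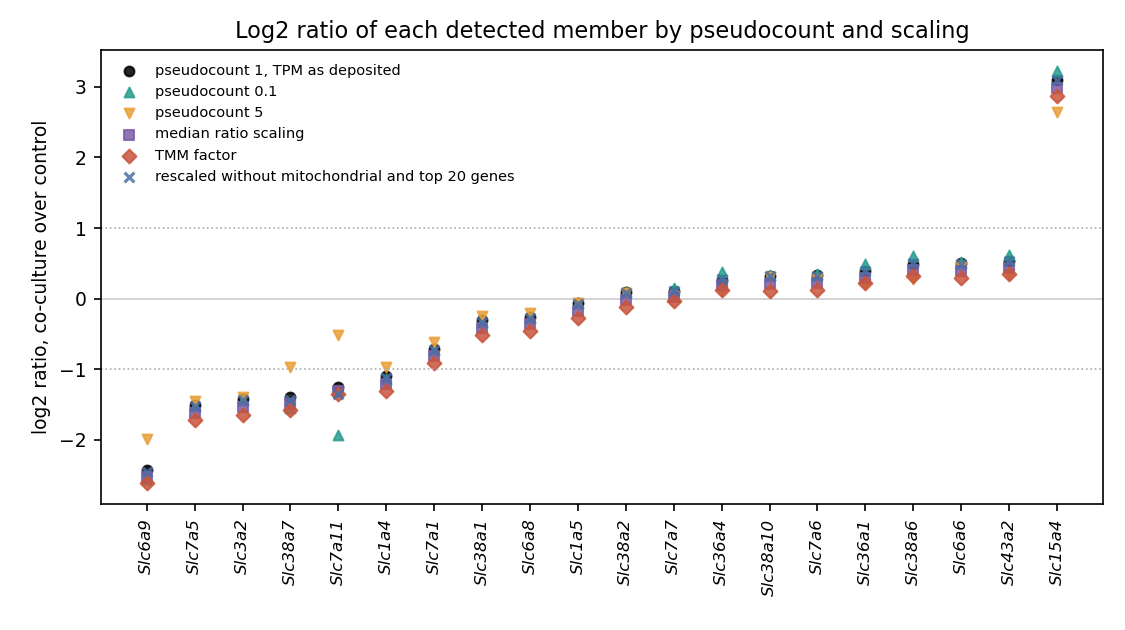
Log2 ratio of co-culture over control for each of the 20 detected transporters, ordered by ratio, with 1 symbol for each pseudocount or scaling and dotted lines at 2-fold. The symbols of most genes lie close together, and those of Slc7a11, a gene with 3.22 and 0.77 TPM, spread from -1.93 to -0.51.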

How the data were processed

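Messenger RNA was measured by RNA sequencing in 2 libraries of 4T1 cells, 1 per group. The authors deposited 1 table of TPM values with 52796 rows, rounded to 2 decimals, of which 51912 had Ensembl identifiers. Per the submitters' processing notes the tools were HISAT2 2.1.0 and RSEM 1.2.31 and the build was GRCm38.p5. No source gives their roles, the annotation, the strandedness or any filter. TPM keeps no depth, so no counting intervals were computed.

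Identifiers were matched to GENCODE M21 symbols (51633 of them had one), and gene positions are GENCODE M21 on GRCm38, 1-based. Log2 ratios used a pseudocount of 1, and genes averaging at least 1 TPM were described. No p-values exist for this design. Promoter windows came from RefSeq (GRCm38.p6). The members and lists were chosen with earlier results of these data known. All members are named or counted, and from each other list of genes of amino acid handling up to 4 detected genes with the largest absolute ratio. Further genes (overlapping, neighbouring, marker or other Slc genes) were chosen after their values were seen. Alternatives were pseudocounts of 0.1 and 5, 3 other scalings, other expression filters, limits of 1.5-fold and 4-fold, and means. The TMM factor was unweighted, with trims of 30% and 5%. The calculations used Python 3.11.15, numpy 2.4.6 and pandas 2.3.3 and were tested on simulated data.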

Additional observations from a re-analysis of the deposited data

How the results depend on the processing

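The count of 6 transporters at least 2-fold lower stood with a pseudocount of 0.1, with each scaling and without an expression filter. It was 3 with a pseudocount of 5, 4 with a minimum mean TPM of 10, 7 at a 1.5-fold limit and 1 at a 4-fold limit. The count of 1 higher was the same in each. The members' median of 0.01 had no stable sign: it was -0.10 with the median ratio scaling, -0.20 with the TMM factor, -0.26 with a minimum mean TPM of 10 and, as a mean, -0.21. The median of the amino acid response transporters (-1.18) stayed negative, at -1.28 with a pseudocount of 0.1, -0.79 with a pseudocount of 5, -1.33 with the TMM factor and -1.05 as a mean. Higher pseudocounts and limits lower such counts by construction. The light to heavy chain ratio is a ratio within a library and cannot move with scaling. No paired analysis was possible because each group has 1 library, and for the same reason no replicate could be left out. Depth is unknown, so the precision of genes near 1 TPM, such as Slc7a11, is unknown.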

Other observations

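Genes outside the set whose symbols begin as those of Slc genes give another reference for the transporters. They were taken by symbol, so they include Slc7a6os, Slc4a1ap, Slc9a3r1 and Slc9a3r2, which are named after carriers and need not be carriers themselves. Among all detected genes 2.14% were at least 2-fold lower in co-culture and 4.95% at least 2-fold higher. Of 336 such protein-coding genes 145 were detected, with a median log2 ratio of 0.11. In co-culture 5 of the 145 (3.45%) were at least 2-fold lower and 2 (1.38%) at least 2-fold higher. The lower genes were Slc30a1, a zinc exporter (4.53 TPM in control cells and 0.81 TPM in co-cultured cells), Slc25a33, a mitochondrial pyrimidine nucleotide carrier (50.3 and 16.2 TPM), Slc35b1, an ATP carrier of the endoplasmic reticulum (69.0 and 26.4 TPM), Slc2a6 (6.69 and 2.01 TPM) and Slc26a6, an anion exchanger (5.57 and 1.98 TPM). The higher genes were the zinc importer gene Slc39a10 (0.82 and 4.39 TPM) and the sodium bicarbonate cotransporter gene Slc4a4 (18.1 and 49.1 TPM). Slc30a1 and Slc39a10 were each under 1 TPM in 1 library and counted as detected only through the library where they are high. This set of Slc genes was chosen after the data were seen, and all 7 of its genes past 2-fold are named.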
